A study of Mus musculus with 6 samples.

Results

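The replication-dependent histone genes were the 60 rows, of 26529 in the table, whose names begin with Hist1h, Hist2h, Hist3h or Hist4h; 0 names held the mark of a pseudogene that was to be dropped. By name they are genes of the linker histone H1 (6 members) and of the core histones H2A (17, of which 1 is annotated as a pseudogene), H2B (17), H3 (10) and H4 (10). The mouse annotation GENCODE M21 holds 10 more such names, of any annotated type, that have no row. Counts of members and pairs here thus cover only genes with a row. RNA came from bone marrow-derived macrophages of wild-type C57BL/6 mice aged 8 weeks, kept with M-CSF (20 ng/ml), the growth factor of macrophages, and with RANKL (10 ng/ml), which turns macrophages into osteoclasts. Osteoclast precursors (OCP, 3 libraries) were cultured for 3 days and osteoclasts (OC, 3 libraries), the multinucleated bone-resorbing cells, for 6 days, so the groups share strain, genotype and both cytokines and differ in culture time. Each library is from a mixed culture with no sorting named, and the labels do not say whether replicates are separate mice or cultures; the p-values therefore speak only of the spread among these libraries, which could be technical. In bulk RNA, fewer cells that make a transcript and less of it per cell cannot be told apart.

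In most animal genes the messenger RNA ends in a poly(A) tail, but replication-dependent histone messages usually end just after a short stem-loop, which the stem-loop binding protein Slbp holds. They are made in bulk during S phase, when new DNA has to be packed, and are broken down when replication stops. Cells that leave the cycle, as osteoclasts do when they fuse, can still hold histone messages that carry a tail, and they use replacement variants such as H3.3, which are encoded elsewhere and are polyadenylated. The libraries were made with a stranded mRNA kit, per the labels; how the kit selects mRNA is not given in the sources used here.

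The sequence that names this gene family is the stem-loop. Its pattern of 16 bases, which are the capitals in the lines below with 5 of them free to be any base, was searched on the sense strand and was found in the GENCODE M21 transcripts of 39 members, in counted exons for 37 and outside them for 2. Of the others, 11 had no match, 9 were annotated with coding bases only and 1 was annotated as a pseudogene. The form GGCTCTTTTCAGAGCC was found in 24 members, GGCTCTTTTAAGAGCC in 6, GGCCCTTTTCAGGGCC in 6, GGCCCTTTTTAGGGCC in 2 and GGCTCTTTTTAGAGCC in 1. The lines show 2 members with the commonest form and 1 with each of 3 others, with 5 bases on either side (5′ to 3′, stem-loop match in capitals):
Hist1h1c: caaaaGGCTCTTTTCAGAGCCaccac
Hist2h2aa2: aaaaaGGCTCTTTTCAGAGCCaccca
Hist1h3c: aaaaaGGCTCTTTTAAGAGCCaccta
Hist1h4i: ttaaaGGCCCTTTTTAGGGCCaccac
Hist2h2ac: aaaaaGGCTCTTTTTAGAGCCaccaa
Some rows also count an exon that runs on past the stem-loop. In Hist1h1c the counted bases past it number 840, in Hist3h2a 1643 and in Hist2h3c1 1162, against 35 in Hist2h2aa2 and 26 in Hist1h2bg. The hexamer AATAAA, the usual poly(A) signal, lay within 40 bases of the counted end in 9 members. It is in capitals in 4 of them that recur below (30 bases each, 5′ to 3′):
Hist1h1c: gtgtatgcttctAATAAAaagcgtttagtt
Hist1h2bc: tgatgtatatatAATAAAtgtcatgtaaag
Hist3h2a: aggtatatgcccAATAAAataagagtacgt
Hist2h2be: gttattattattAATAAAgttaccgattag
Hist1h2bc and Hist2h2be had no match to the stem-loop pattern in their annotated transcripts. A match is a description of the letters, not evidence that the end is used.

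Summed over all rows, the 6 libraries held 33219178 to 42121216 reads assigned to genes. These are whole reads recovered from the RPKM values (reads scaled by gene length and by that total) and the row lengths. The total of each library was no input and was fitted so that the values became whole. A read listed in overlapping rows would count more than once in this total. At a length of 500 bases, 3 reads were worth 0.142 to 0.181 RPKM. All 10 osteoclast markers of the list were present, but all 10 were lower in the libraries labelled OC by limma: their summed level was 5104 to 5261 RPKM in OCP and 2730 to 2815 RPKM in OC, and Ctsk, the collagen-degrading protease, went from a mean of 3249 RPKM (SD 108, n = 3) to one of 1711 RPKM (SD 25.0, n = 3). Of 8 macrophage markers, 2 fell and 6 rose. The limma shares over all tested genes were 32.1% that fell and 23.5% that rose. Among neutrophil markers 3 were tested and 3 rose, with a summed level of 34.0 to 37.6 RPKM in OCP and 47.8 to 52.4 RPKM in OC. Markers of B cells (3.59 to 4.26 RPKM in OCP and 2.75 to 3.40 RPKM in OC), T and NK cells (1.66 to 2.21 and 2.19 to 2.87 RPKM), erythroid cells (0.308 to 0.421 and 0.151 to 0.579 RPKM), stromal cells (3.27 to 3.40 and 3.17 to 3.77 RPKM) and progenitors (0.664 to 0.740 and 0.493 to 0.570 RPKM) were low; 0 of the markers with a row were at 0 in all 6 libraries. The markers thus go against the labelled direction of osteoclast formation; the group labels were taken as given, every direction here rests on them, and an exchange of labels was not tested. The part of these markers in the histone values was not tested either.

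Histone reads were few and were lower in OC. All 60 members together held 9829, 9868 and 9226 reads in OCP and 6181, 5791 and 6312 in OC. On the RPM scale, which divides by the library's assigned reads as RPKM does but not by length, this is 233, 249 and 251 in OCP (244 ± 9.60, SD, n = 3) and 177, 174 and 166 in OC (172 ± 5.79, SD, n = 3). The groups did not overlap and the ratio of means was 0.705. This sum is the sum of a few genes: Hist1h1c, Hist2h2aa2 and Hist1h2bc held 84.4% to 86.0% of the member reads in each library.

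Most of the family was close to the limit of detection. Of 60 members, 46 had a mean under 10 reads per library, and 102 of the 360 member values were 0. Of the 172 member values of 1 to 10 reads, 85.5% were even, beside 77.3% to 80.6% over all genes in the 6 libraries. Reads may thus not be independent counts, and whether both mates of a pair were counted was not tested. The 46 summed to 117, 126 and 96 reads in OCP and to 113, 110 and 95 in OC. These were 2.78, 3.17 and 2.61 RPM in OCP and 3.23, 3.31 and 2.49 RPM in OC, values that overlap, with a ratio of 1.055. The drop in summed histone reads is thus carried by the 14 members with a mean of at least 10 reads. In 11 of these every OC library was below every OCP library in RPKM, in 1 (Hist1h2al) every OC library was above, and in 2 the groups overlapped. Over all 15802 genes at that depth, OC was below without overlap in 32.2% and above in 26.1%.

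**Figure D1:**
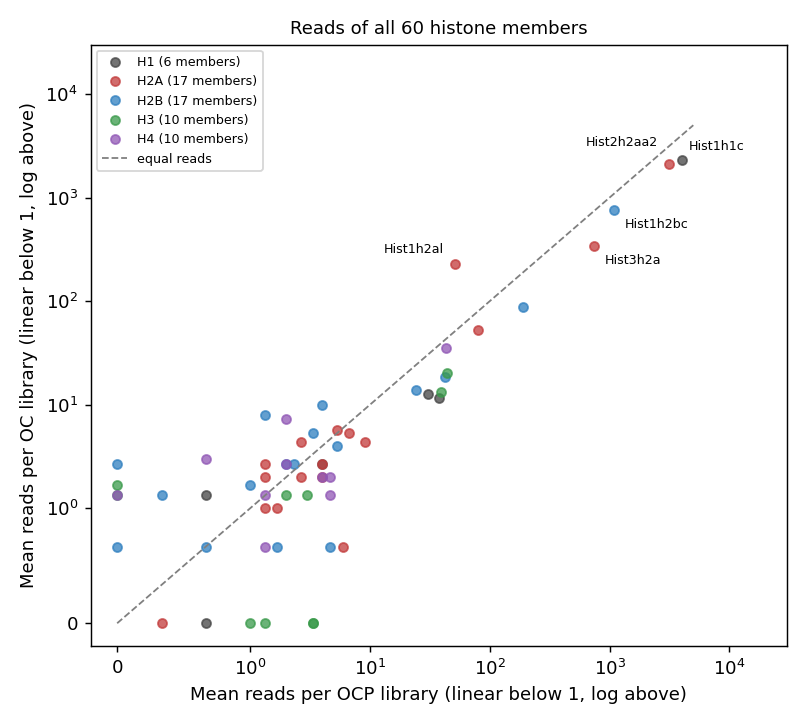
Mean reads per library of the 60 members in OCP (x axis) and OC (y axis), both linear below 1 read and logarithmic above; each point is a member, coloured by histone type, and the dashed line marks equal reads. A handful of members lie far from the cloud of rows with few reads, and Hist1h2al lies above the line with 51.3 reads in OCP and 228 in OC.

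The limma test took every gene that reached 1 RPKM in 3 or more libraries, 12301 in all, on log2(RPKM + 1), with a Benjamini-Hochberg adjustment over the whole set and a threshold of 0.05. It covered 10 of the 60 members, of which 7 fell, 1 rose and 2 did not pass; the other 50 were too low to be tested. Over all tested genes 32.1% fell and 23.5% rose. The median difference (OC minus OCP, log2 scale) was -0.47 over the 10 tested members and -0.05 over all genes. Hist2h2be and Hist1h1d passed the filter only through OCP, where they are higher, and Hist1h2bg reached 1 RPKM in 3 OCP libraries but in 1 OC library, so the count is no measure of the family as a whole. A voom fit of the recovered reads, for genes with a mean of at least 10 reads, covered 14 members. In it 10 fell, 1 rose and 3 did not pass, against 28.7% of all genes that fell and 23.8% that rose.

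**Figure D2:**
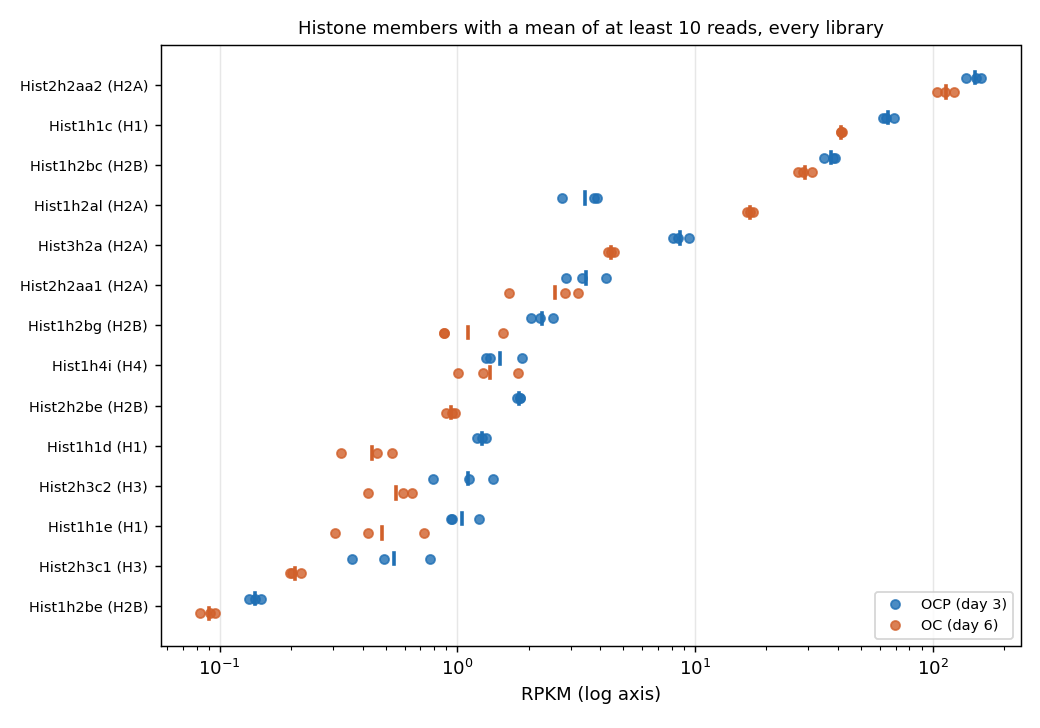
RPKM (log axis) of the 14 members with a mean of at least 10 reads, one row each; points are libraries, vertical ticks group means, blue OCP and orange OC. In 11 rows the orange points lie wholly to the left of the blue ones, in Hist1h2al they lie wholly to the right, and in Hist2h2aa1 and Hist1h4i they mix.

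Linker histones bind the DNA between nucleosomes. Hist1h1c (chr13:23738808-23740367, plus strand, GRCm38), which codes for the somatic subtype H1.2, held nearly all H1 reads. Its level was 62.0, 63.7 and 69.1 RPKM in OCP and 41.2, 41.5 and 41.2 RPKM in OC. The OC values were close to each other and all below OCP. Hist1h1c fell by 0.64 on the log2 scale (SE 0.051, limma adjusted p = 2.75e-05). Hist1h1d, the gene of H1.3, had 40, 39 and 33 reads in OCP and 12, 8 and 15 in OC. No OC library reached the lowest OCP library, and it fell by 0.66 on the log2(RPKM + 1) scale (SE 0.078, limma adjusted p = 0.000221). In the voom fit, which adds no 1 to the RPKM, the same reads gave a log2 difference of -1.51 (adjusted p = 0.00107). Hist1h1e, the gene of H1.4, had 30, 28 and 34 reads in OCP and 8, 18 and 12 in OC. It was below the filter of the limma test, and in the voom fit it fell by 1.16 (SE 0.372, adjusted p = 0.0136). The remaining H1 members, Hist1h1a, Hist1h1b and the testis gene Hist1h1t, had at most 6 reads in any library. Summed over the 6 H1 members, the level was 103 ± 5.96 RPM in OCP and 65.2 ± 0.421 RPM in OC (SD, n = 3), a ratio of 0.632.

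H2A and H2B form dimers that flank the H3-H4 core of the nucleosome. Hist2h2aa2 (chr3:96239749-96240276, minus strand), an H2A gene, had the highest RPKM of the family, at 138, 161 and 152 RPKM in OCP and 123, 113 and 105 RPKM in OC. Every OC library was below every OCP library. It fell by 0.40 on the log2 scale (SE 0.075, limma adjusted p = 0.00236). Its 528 transcript bases were found with no mismatch in Hist2h2aa1, a neighbour on the same chromosome, so the split of reads between both copies is uncertain. Hist2h2aa1 had 2.88, 4.21 and 3.34 RPKM in OCP and 2.83, 3.24 and 1.66 RPKM in OC; the groups overlapped and the difference of -0.34 (95% interval -0.79 to 0.11, limma adjusted p = 0.169) did not pass. On the opposite strand, the antisense row Gm20632 spans the whole of Hist2h2aa2 and was listed with 101% to 102% as many reads as it in each library. The counts thus do not tell the strands apart here, although the kit is labelled as stranded.

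Hist3h2a (chr11:58954685-58956830, plus strand) is a single H2A gene apart from the large clusters. It had 767, 803 and 637 reads in OCP and 344, 308 and 364 in OC, which is 8.49, 9.42 and 8.08 RPKM and 4.58, 4.32 and 4.45 RPKM. OC was the lower group throughout, and the fall of 0.82 on the log2 scale (SE 0.066, limma adjusted p = 2.85e-05) had the greatest size in this fit among the called members that fell. The row shares 708 of its 2146 bases (33.0%) with an exon of Trim17, a ubiquitin ligase gene on the same strand, and the Trim17 row held 85.4% to 90.4% as many reads, so which gene they came from cannot be told apart.

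Hist1h2al went the other way. It is listed with 44, 58 and 52 reads in OCP and 226, 220 and 238 in OC, or 2.76, 3.86 and 3.74 RPKM and 17.1, 17.5 and 16.5 RPKM. All OC libraries were above all OCP libraries, by a ratio of means of 4.93, and it rose by 2.03 on the log2 scale (SE 0.097, limma adjusted p = 1.95e-06). This row (chr13:51202688-51203065, minus strand) lies outside the large cluster on chromosome 13, which spans 21715763 to 23934156, and GENCODE M21 annotates it as a processed pseudogene. Its transcript of 339 bases differs from Hist2h2aa1 and Hist2h2aa2 by 2 mismatches (99.4% identity), so its reads are uncertain too.

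The reads of Hist1h2al also fell at different places in the groups. Inside its row lies a row of 138 bases on the opposite strand, Gm44341. The counts were read as if a read that overlaps it is counted in both rows, which the processing notes used here do not state. In OCP this segment held 44, 58 and 51 of the 44, 58 and 52 reads, and in OC 112, 121 and 130 of the 226, 220 and 238. The share was 99.4% ± 1.11 in OCP and 53.1% ± 3.04 in OC (SD, n = 3). The Wilson 95% interval was 89.9% to 99.7% in the lowest OCP library and 48.4% to 61.4% in the highest OC library. This interval covers counting error only and takes reads as independent, so it may be too narrow where low counts are mostly even. By subtraction, there was 1 read outside the segment in all OCP libraries and 321 in OC. Within it the level was 1.29 RPM over the OCP libraries and 3.41 RPM over OC, a ratio of 2.65. The like segment of 138 bases within Hist2h2aa2 held 54.3% ± 0.896 of its reads in OCP and 52.1% ± 2.59 in OC, that in Hist3h2a 54.8% ± 1.17 and 52.8% ± 1.49, and that in Hist2h2aa1 82.0% ± 1.58 and 84.2% ± 1.86 (SD, n = 3 in each group).

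**Figure D3:**
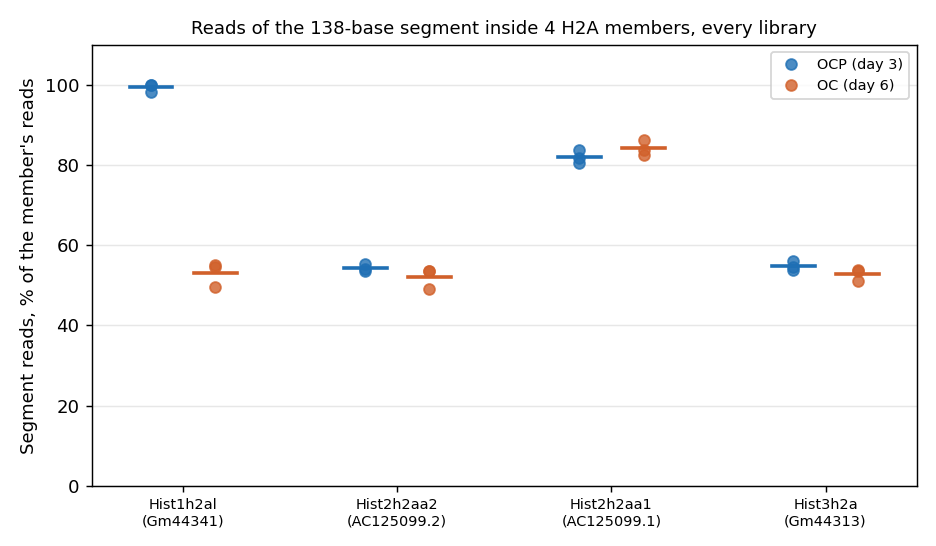
Reads of the 138-base row as a percent of the reads of the H2A member that contains it, for 4 members; points are libraries, horizontal bars group means. Hist1h2al goes from 99.4% in OCP to 53.1% in OC, whereas the group means of the 3 other members differ by under 3 percentage points.

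The other 13 H2A members had a mean of at most 6.67 reads. Over all 17, the summed level was 102 ± 7.58 RPM in OCP and 78.4 ± 5.54 RPM in OC, a ratio of 0.765 (SD, n = 3). Without Hist2h2aa2 it was 23.1 ± 2.09 and 18.5 ± 0.744 RPM, a ratio of 0.799. Summed in RPKM, these same members went from 18.1 ± 1.98 to 26.1 ± 1.47, a ratio of 1.44, with the pseudogene row Hist1h2al included. The direction of the H2A sum without Hist2h2aa2 thus depends on the scale.

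Among H2B genes, Hist1h2bc had by far the most reads. Its level was 38.9, 35.1 and 38.0 RPKM in OCP and 27.2, 31.1 and 28.5 RPKM in OC, without overlap. It fell by 0.36 on the log2 scale (SE 0.064, limma adjusted p = 0.00194). The row is spliced: an exon of the large chromosome 13 cluster (chr13:23684199-23684621) is joined to one that starts at 23692176, whose end holds the AATAAA shown above. Hist2h2be (chr3:96221119-96223738) had 1.83, 1.79 and 1.84 RPKM in OCP and 0.894, 0.977 and 0.951 RPKM in OC. The spread inside each group was small against the gap between them, and it fell by 0.54 (SE 0.062, limma adjusted p = 0.00019). Hist1h2bg, a short H2B gene, had 41, 48 and 39 reads in OCP and 26, 14 and 16 in OC and fell by 0.65 (SE 0.129, limma adjusted p = 0.00343). Hist1h2be had 26, 23 and 24 reads in OCP and 14, 12 and 16 in OC; no library of one group reached the other, but the voom difference of -0.62 (95% interval -1.33 to 0.09, adjusted p = 0.136) did not pass. Over the 17 H2B members the summed level was 34.6 ± 1.34 RPM in OCP and 25.8 ± 1.56 RPM in OC, a ratio of 0.747 (SD, n = 3).

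H3 and H4 make the tetramer at the heart of the nucleosome, and S-phase cells need as much of them as of H2A and H2B. In these libraries few reads were listed for H3 and H4. Their messages usually carry no tail, and the handling of reads that map to several places is not given. A low level, poor capture by the kit and reads left out of the counts therefore cannot be told apart. All 10 H3 members together gave 2.47 ± 0.17 RPM in OCP and 1.10 ± 0.0369 RPM in OC, a ratio of 0.447, and all 10 H4 members 1.63 ± 0.265 and 1.61 ± 0.345 RPM, a ratio of 0.985 (SD, n = 3). The H3 libraries did not overlap between the groups; the H4 libraries did. No H3 member reached the filter of the limma test.

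Hist2h3c2 had 34, 57 and 42 reads in OCP and 15, 20 and 25 in OC, and Hist2h3c1 59, 26 and 33 in OCP and 14, 12 and 14 in OC. In both, each OC library was below each OCP library. The voom fit gave a fall of 0.96 for Hist2h3c2 (SE 0.325, adjusted p = 0.0187) and of 1.30 for Hist2h3c1 (SE 0.372, adjusted p = 0.00645). These H3 genes share 666 identical bases, and Hist2h3c1 lies wholly inside the longer row Gm20634, so their values are uncertain. Hist1h3c, the next of the type by RPKM, had 2, 4 and 4 reads in OCP and 0 in each OC library. A count of 0 allows up to 3 reads if reads are independent.

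Hist1h4i held most of the H4 reads, with 42, 38 and 50 in OCP and 46, 31 and 28 in OC. The groups overlapped, and the difference of -0.10 (95% interval -0.41 to 0.22, limma adjusted p = 0.575) did not pass. Hist1h4m had 2, 6 and 4 reads in OCP and 1, 4 and 1 in OC, and Hist1h4h 6, 6 and 2 in OCP and 0, 4 and 2 in OC; the groups overlapped, and neither had enough reads for the limma or the voom fit.

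**Figure D4:**
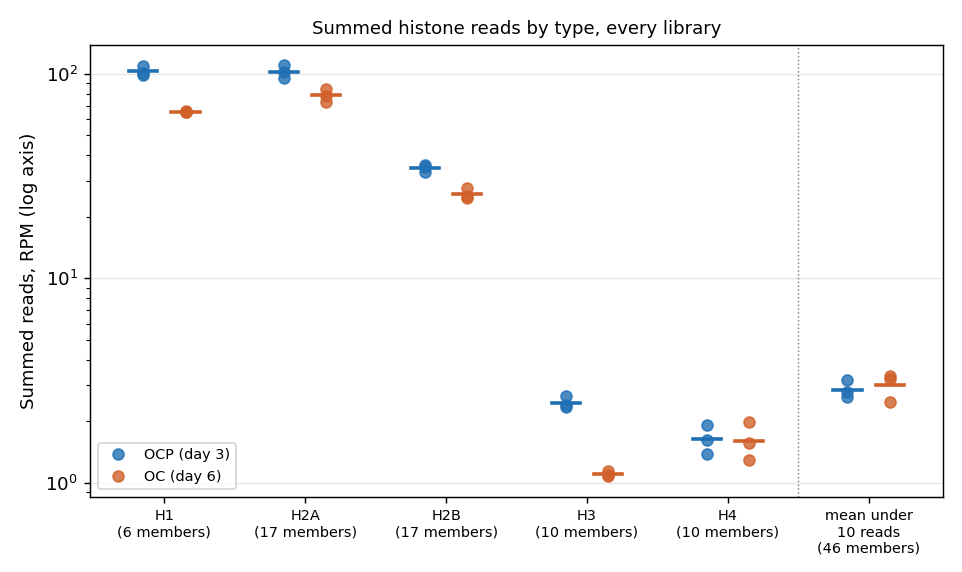
Histone reads in RPM (log axis), summed over the members of each histone type and, right of the dotted line, over the 46 members of any type with a mean under 10 reads; points are libraries, bars group means. H1, H2A, H2B and H3 are lower in OC without overlap, while H4 and the members with few reads overlap.

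The members were also set beside their annotated ends, as a description with no test. Of the 9 members with AATAAA near the counted end, 5 had a mean of at least 10 reads (Hist1h1c, Hist1h2bc, Hist3h2a, Hist2h2be and Hist2h3c1), and so had 9 of the other 51. Among members with a stem-loop match in counted exons, 6 of the 11 with at least 100 counted bases past it had a mean of at least 10 reads, against 5 of the 26 with fewer. Longer rows collect more reads at the same level; on the RPKM scale the medians were 0.115 RPKM for the 11 and 0.184 RPKM for the 26. RPKM in turn takes reads as spread evenly over a row. In Hist3h2a a segment of 138 of the 2146 bases held 51.1% to 56.0% of the reads in each library. Neither scale thus settles which of these groups is the more expressed. Hist2h2aa2, with 35 counted bases past its stem-loop and no AATAAA near its end, is the member with the highest RPKM.

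By place, 8 of the 48 members named Hist1 (chromosome 13) had a mean of at least 10 reads, 5 of the 10 named Hist2 (chromosome 3), the single Hist3 member (chromosome 11) and not the single Hist4 member (chromosome 6). Many H2A and H2B genes stand head to head and share the stretch between their starts. There were 10 such pairs with at most 500 bases between the starts, and each joined an H2A to an H2B gene. In 7 pairs both genes had a mean under 10 reads. In the other 3 the H2B gene was the one with reads. Hist1h2bc had a mean of 33.1 RPKM over the 6 libraries while Hist1h2ac, 274 bases away, had 4, 4 and 0 reads in OCP and 8, 0 and 5 in OC. Hist2h2be had 1.38 RPKM and Hist2h2ac, 238 bases away, 0.287 RPKM. Hist1h2bg had 1.69 RPKM and Hist1h2ae, 286 bases away, 0.166 RPKM. The counted H2B rows of the Hist1h2bc and Hist2h2be pairs end in the AATAAA shown above, and that of Hist1h2bg does not.

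**Figure D5:**
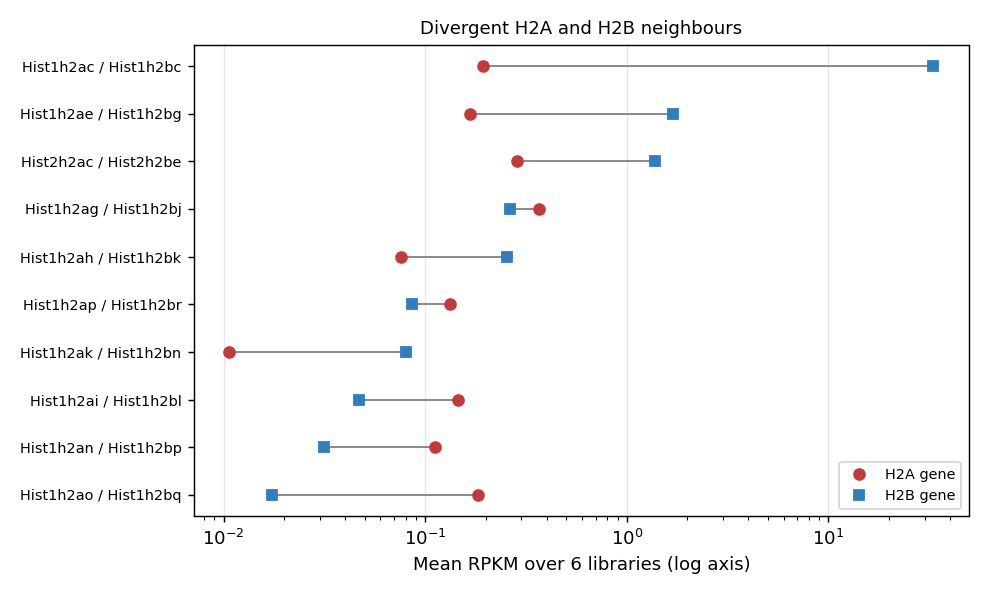
Mean RPKM over the 6 libraries (log axis) of the H2A gene (circle) and the H2B gene (square) of each of the 10 head-to-head pairs. The Hist1h2ac and Hist1h2bc pair is the widest, at 0.194 and 33.1 RPKM; the 7 pairs whose genes both have under 10 reads all lie at or below 0.365 RPKM.

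The shared stretch of the Hist1h2ac and Hist2h2ac pairs is printed because both genes of a pair start from it, and the Hist1h1c promoter because this gene carried most H1 reads (RefSeq, GRCm38.p6, 250 bases before to 50 after the start, 5′ to 3′ on the strand of the named gene). Capitals mark the CCAAT box, the TATA element TATAAA, the octamer known from H2B promoters, ATTTGCAT, and the element known from H1 promoters, AAACACA. Both strands were searched, so a box may also be printed as its reverse complement, such as ATTGG for the CCAAT box; none of these motifs holds another.
Hist1h2ac, chr13:23683910-23684209, minus strand: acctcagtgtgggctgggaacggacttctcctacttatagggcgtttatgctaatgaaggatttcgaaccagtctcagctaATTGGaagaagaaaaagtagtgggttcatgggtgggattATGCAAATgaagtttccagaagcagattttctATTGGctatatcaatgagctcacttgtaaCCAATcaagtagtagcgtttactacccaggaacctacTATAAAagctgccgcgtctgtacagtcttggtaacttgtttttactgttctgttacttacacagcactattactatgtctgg
Hist2h2ac, chr3:96220831-96221130, minus strand: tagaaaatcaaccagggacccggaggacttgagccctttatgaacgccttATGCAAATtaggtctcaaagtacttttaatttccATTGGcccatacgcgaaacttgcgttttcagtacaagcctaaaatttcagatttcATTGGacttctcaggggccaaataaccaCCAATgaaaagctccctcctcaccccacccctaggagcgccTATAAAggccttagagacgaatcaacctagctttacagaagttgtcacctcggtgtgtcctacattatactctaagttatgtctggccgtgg
Hist1h1c, chr13:23738557-23738856, plus strand: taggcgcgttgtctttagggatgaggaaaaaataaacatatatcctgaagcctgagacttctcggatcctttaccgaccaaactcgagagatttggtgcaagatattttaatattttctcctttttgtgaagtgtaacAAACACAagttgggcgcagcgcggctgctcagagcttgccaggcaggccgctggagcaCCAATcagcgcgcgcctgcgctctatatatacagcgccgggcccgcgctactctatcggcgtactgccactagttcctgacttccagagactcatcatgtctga
A RefSeq promoter matched 54 of the 60 members. CCAAT was found in 48 of them (88.9%), against 37.4% of all 32851 promoters of this length, and the 9 H4 promoters were the exception with 3. TATAAA was found in 29 (53.7% against 13.6%). ATTTGCAT was found in 12 (22.2% against 1.74%), 6 of them H2A and 6 H2B genes. Windows of head-to-head genes overlap, so a motif can be counted for both genes. The same octamer was counted for Hist1h2ae and Hist1h2bg, and likewise for Hist1h2ah and Hist1h2bk, so the 12 are not all separate occurrences. AAACACA was found in 5 of the 6 H1 promoters and in 8 of all 54 (14.8% against 7.18%). These shares describe letters in a window and are not sites of binding. The stretch between Hist1h2ac and Hist1h2bc is one sequence for a gene with few reads and for one with 920 on average.

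The H3.3 genes had higher listed levels than all replication-dependent H3 rows together. H3.3 messages are polyadenylated and the others usually are not, so with an mRNA kit a difference in level and one in capture cannot be told apart. The 10 H3 members summed to 2.24 ± 0.010 RPKM in OCP and 1.02 ± 0.0741 RPKM in OC, whereas H3f3b, a gene of the replacement histone H3.3, alone stood at 85.4 ± 1.93 RPKM and 110 ± 5.11 RPKM (SD, n = 3). Of the 14 listed variant genes 12 had a row and 11 were tested; 4 fell and 4 rose, beside 32.1% and 23.5% of all tested genes, with a median difference of 0.01. H3f3b rose by 0.36 (SE 0.048, limma adjusted p = 0.000401) and H3f3a, the other H3.3 gene, by 0.55 (adjusted p = 0.000128); an antisense row shares part of H3f3a. H1f0, the linker histone of resting cells, rose by 0.36 (limma adjusted p = 0.00119) from 35.7 ± 2.57 to 45.9 ± 0.661 RPKM. H2afz, the gene of H2A.Z, fell by 0.53 (limma adjusted p = 0.00016) from 93.1 ± 5.12 to 64.0 ± 3.50 RPKM. On the log2(RPKM + 1) scale, which understates the change of low genes such as H1fx (1.74 and 0.834 RPKM), the called variant genes with the greatest change were H1foo, known from oocytes, with 4.62 ± 0.428 RPKM in OCP and 1.78 ± 0.249 RPKM in OC (log2 difference -1.01, limma adjusted p = 4.54e-05), and H2afj, with 16.6 ± 1.84 and 25.1 ± 0.821 RPKM (0.58, limma adjusted p = 0.000456), part of which an opposite row shares. H2afz, H3f3a, H3f3b, H1f0 and H1fx were chosen after their values were seen.

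The genes that make and process histone messages were called in both directions. Of 18 listed genes 16 were tested; 6 fell and 3 rose (4 and 3 with TMM factors), beside 32.1% and 23.5% of all tested genes, with a median difference of -0.04. Slbp had 17.7 ± 0.372 RPKM in OCP and 17.3 ± 1.04 RPKM in OC and did not pass (limma adjusted p = 0.582). The Slbp row shares 474 of its 6076 bases with Gm10459 on the opposite strand. Gm10459 was listed with 1447 to 2023 reads per library and Slbp with 3326 to 4650, so the source of part of the Slbp reads is uncertain. Npat, the cyclin E target that switches on histone transcription, had 2.74 ± 0.333 and 3.15 ± 0.347 RPKM and did not pass either (limma adjusted p = 0.187). Hinfp, the activator of H4 promoters, rose by 0.54 (limma adjusted p = 0.000345) and Cstf2t, a cleavage factor, fell by 0.37 (limma adjusted p = 0.00026).

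Of 20 histone chaperones and assembly factors, all tested, 4 fell and 2 rose, beside 32.1% and 23.5% of all tested genes, with a median of -0.06. Chaf1a, the large subunit of the replication-coupled assembly factor CAF-1, fell by 0.47 (limma adjusted p = 0.000468) from 55.3 ± 3.56 to 39.7 ± 2.32 RPKM, and Nap1l1, a carrier of H2A-H2B, rose by 0.53 (limma adjusted p = 0.000288) from 80.3 ± 6.23 to 116 ± 5.99 RPKM. Of the 30 S-phase and DNA replication genes 29 were tested; 12 fell and 1 rose (10 and 1 with TMM factors), with a median of -0.14. Over all tested genes 32.1% fell and 23.5% rose, with a median of -0.05. The share of the list that fell is thus not far above the background, while the share that rose, 1 of 29, is well below it. The difference from the background was not tested. Ccne2, a cyclin E, fell by 0.54 (limma adjusted p = 0.00454) and Cdt1, which licenses replication origins, by 0.47 (limma adjusted p = 0.000444). The rows of Chaf1a and Ccne2 share bases with a gene on the opposite strand.

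RNAs known to carry no poly(A) tail were looked at in the same libraries. The 15 listed RNAs with a row summed to 105 to 114 RPKM in OCP and 109 to 120 RPKM in OC, most of it Rn7s1, the RNA of the signal recognition particle, with 87.1 ± 6.46 and 92.0 ± 4.95 RPKM. In limma 0 of the 4 tested passed; 1 had an unadjusted p under 0.05, and the voom fit also called 0 of 4. The summed levels overlapped between the groups.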

How the data were processed

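Values are RPKM as deposited by the authors, 1 table of 6 libraries. Per the submitters' processing notes, Trimmomatic 0.36, STAR 2.5.3a and featureCounts were used; the strand setting and the handling of reads that map to several places are not given in the sources used here. The notes name a human build, but the coordinates are mouse: 39 of the 60 members have the same start and end in GENCODE M21 (GRCm38), which supplied transcripts and annotation. RPKM times length and a total fitted for each library gave whole reads for 100% of values (tolerance 0.01 reads). The totals were fitted to the same values, so this is no independent check.

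The comparison of both stages used limma 3.58.1 with statmod 1.5.0 in R 4.3.3 (trend and robust options, two-sided), on the scale and with the filter given in the report. Members and lists were chosen with earlier results of these data known. Named were, per type, the 3 members with the highest mean RPKM, the called members that rose most and fell most (3 each), up to 4 against their type, Slbp, Npat and 2 called genes per list; Hist2h2aa1, Hist1h2be, the genes of the head-to-head pairs and the markers named are outside this rule and were chosen after their values were seen. Steps were tested on simulated data. Copies were aligned with blastn 2.17.0, and Python 3.11.15 made tables and figures. Alternatives were no filter, a filter at 5 RPKM, pseudocounts of 0.1 and 0.01, TMM or quantile scaling, no trend, the replicate block, voom, and leaving out each replicate.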

Additional observations from a re-analysis of the deposited data

How the results depend on the processing

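The count of members that fell was 7 in the main limma fit and 4 when only genes with a mean of at least 5 RPKM were tested, which leaves fewer members to test. It was 10 with no filter and in both voom fits, and 7 without each replicate in turn. The count that rose was 1 in every alternative run. These counts have to be read beside all genes tested. In the main fit 3954 of 12301 fell and 2889 rose. With the filter at 5 RPKM 2904 of 7228 fell and 1645 rose, and with no filter 3726 of 26529 fell and 3240 rose. Without each replicate 3370 to 3784 of 12301 fell and 2524 to 2932 rose. The 8 called members kept their direction and call under each alternative in which they were tested, with adjusted p-values of at most 0.0159. The summed ratio of 0.705 became 0.754 without Hist1h1c, the member with the most reads, and 0.729 with TMM factors. It became 1.055 over the members with a mean under 10 reads, an alternative chosen after seeing the data. Without each replicate it ranged from 0.689 to 0.718. Over all genes in the voom fit, 4541 fell and 3764 rose, and with TMM factors 3967 fell and 4258 rose. Same-numbered OCP and OC libraries did not deviate together (r = -0.11, 0.14 and 0.01 for replicates 1, 2 and 3), and with the replicate block the counts were 7 and 1. Hist2h3c2 and Hist1h1e passed with no filter and in both voom fits, Hist2h3c1 in both voom fits and Hist1h3c with no filter. Depth limits the 46 members with a mean under 10 reads.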
